A study of Rattus norvegicus with 9 samples.

Results

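Matrix metalloproteinases (Mmps), the related proteases of the Adam and Adamts families, and the tissue inhibitors of metalloproteinases (Timps) were followed in rat striatum across 3 groups of 3 libraries. The members were all gene IDs of the read count files that begin with Mmp, Timp, Adam, Adamts or Adamtsl and continue with a digit, which gave 75 of 22890 genes: 23 Mmp, 3 Timp, 25 Adam, 19 Adamts and 5 Adamtsl genes. ICH stands for intracerebral hemorrhage, a bleed inside the brain, and Sham is its control. EDB stands for edaravone dexborneol, a drug made of the radical scavenger edaravone and dexborneol. No label tells whether rats of the EDB group had bled as well, nor the strain, sex, age, dose or time of sampling, and EDB was therefore set against both ICH and Sham. P-values describe the spread between libraries alone, because separate animals are not named.

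Mmps are secreted or membrane-anchored zinc enzymes that cut collagens, laminins, proteoglycans and other proteins of the extracellular matrix, and most are made as inactive proforms. Timps bind their active sites. Adams are transmembrane proteins, and those with an active protease domain release the outer parts of receptors, growth factors and adhesion molecules from the cell surface, whereas Adam11, Adam22 and Adam23 lack the catalytic residues and act in the nervous system as binding partners. Adamts enzymes are secreted and cut matrix proteoglycans, procollagens or von Willebrand factor, and the Adamts-like proteins resemble them without a protease domain. In hemorrhagic brain, Mmp9 and other members have long been studied for their part in opening the vessel wall's basement membrane.

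Total counts ran from 14658110 to 17659936 per library, and the members together took from 0.0999% to 0.124% of them. The striatal origin was visible in all 9 libraries: Ppp1r1b, a marker of striatal projection neurons, stood between 2330.3 and 6174 CPM (counts scaled to a common library size, with TMM scaling). Some libraries stood apart. The 6 choroid plexus markers summed to 7344 CPM in EDB 3 against 29.1 to 75.9 CPM elsewhere. ICH 1 had no count of the Y-linked genes Kdm5d and Eif2s3y, which had 151 to 313 and 49 to 148 counts in the other 8 libraries. The liver gene Alb was at 166 and 165 CPM in Sham 1 and Sham 3 and at most 25.8 CPM in the other 7.

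Of the 75 members, 48 passed a filter on low counts and were tested. A further 15 had counts but too few for a test, and 12 had none in any library: Mmp1, Mmp1b, Mmp20, Mmp27, Adam2, Adam3a, Adam7, Adam24, Adam26a, Adam28, Adam34 and Adam34l. A gene is called here when its adjusted p (edgeR's quasi-likelihood test, Benjamini-Hochberg over all 14274 genes tested) was under 0.05, and it is then said to have risen or fallen. In ICH against Sham, 10 of the 48 rose, 5 fell and 33 were not called, which makes 31.2% called beside 18.7% of all genes tested (11.4% risen and 7.30% fallen). The median log2 fold change of the tested members was 0.13, against 0.01 over all genes tested. Every member called in this comparison had 3 libraries of one group beyond all 3 of the other, and 20 of the 48 had groups that did not overlap, against 35.6% of all genes. Scaling by library size alone moved the split of calls over all genes from 1628 risen and 1042 fallen to 2008 and 691, and that of the members to 11 risen and 5 fallen. In such bulk tissue, fewer cells of a type and less RNA per cell cannot be told apart. Values of single libraries are given below in the order of libraries 1, 2 and 3 of each group, changes as log2 fold change ± SE with n = 3 against 3.

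**Figure D1:**
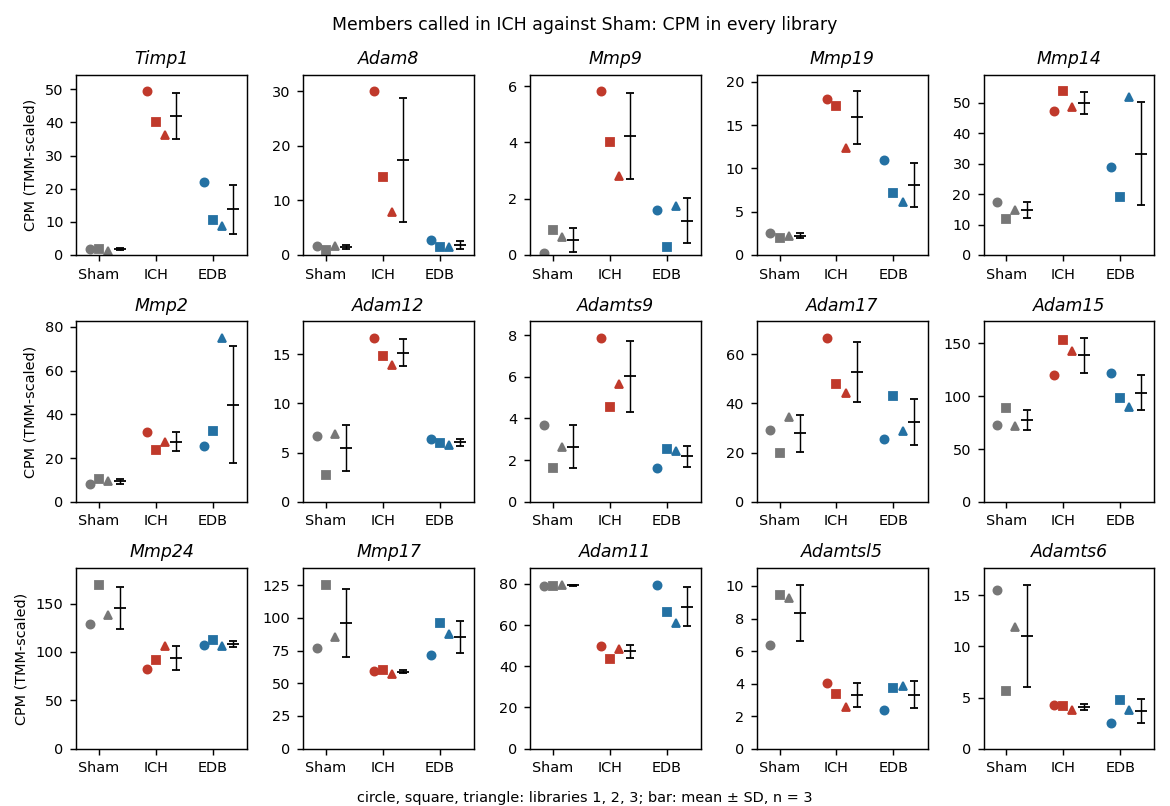
CPM (y axis, TMM-scaled, from 0) of the 15 members called in ICH against Sham, by group, with 1 point per library (circle, square and triangle for libraries 1, 2 and 3) and the mean ± SD of 3 libraries. The 3 ICH libraries lie above the 3 Sham libraries in the first 10 panels and below them in the last 5, and the EDB libraries of Timp1 (8.75 to 22.1) lie between the groups.

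The inhibitor Timp1 had the largest rise among the 48 tested members. It stood at 1.94, 1.85 and 1.35 CPM in Sham, 49.5, 40.02 and 36.2 CPM in ICH and 22.1, 10.4 and 8.75 CPM in EDB. No ICH library came near a Sham library, and all 3 EDB libraries lay between the groups. From 1.71 ± 0.319 CPM to 41.9 ± 6.86 CPM (n = 3 each), the log2 fold change in ICH against Sham was 4.60 ± 0.37 (adjusted p = 2.9e-05), and it stayed called under all 20 alternatives (adjusted p from 4.78e-35 to 0.00141). Its level was highest in ICH 1, and without ICH 1 the log2 fold change was 4.47. No gene ID of the read count files was Timp2, so that gene could not be followed, and the other Timps were not called. Timp3, the inhibitor that is held in the matrix, stood at 96.7, 116 and 114 CPM in Sham, 91.2, 84.5 and 114 CPM in ICH and 107, 71.8 and 111 CPM in EDB, with overlapping groups and a log2 fold change of -0.18 ± 0.18 in ICH. Timp4, an inhibitor made in brain and heart, stood at 15.6, 26.95 and 24.4 CPM in Sham, 18.4, 14.8 and 25.6 CPM in ICH and 37.6, 26.6 and 22.3 CPM in EDB (-0.18 ± 0.27 in ICH), again with overlapping groups. In the reference gene table, Timp1, Timp3 and Timp4 each overlap a synapsin gene (Syn1, Syn3 and Syn2), and no source used here gives the strand setting of the counting, so reads from stretches that both genes cover could not be told apart. Syn1 had a log2 fold change of -0.35 ± 0.16 in ICH against Sham, Syn3 -0.30 ± 0.17 and Syn2 -0.07 ± 0.17, none of them called.

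The bases before the start of Timp1 are given because transcription factors of the AP-1 family, made of Fos and Jun proteins, are known to act on this gene. They bind the heptamer TGAGTCA in many genes, and the letters known from Timp1 differ from it in 1 base. RefSeq promoter windows of the rat assembly GRCr8, from 250 bases before to 50 after a gene's start, were in the reference table for 52 of the 75 members. The variant TGAGTAA, read on the other strand as TTACTCA, was searched for on both strands after the windows were seen. It was found 108 bases before the start of Timp1, in 3 of the 52 members with a window (Timp1, Mmp3 and Adamts13) and in 2.9% of all 33469 windows of the table. The 250 bases lie at chrX:3771123-3771372 on the minus strand of GRCr8 and run 5′ to 3′, with the variant in capitals.
Timp1: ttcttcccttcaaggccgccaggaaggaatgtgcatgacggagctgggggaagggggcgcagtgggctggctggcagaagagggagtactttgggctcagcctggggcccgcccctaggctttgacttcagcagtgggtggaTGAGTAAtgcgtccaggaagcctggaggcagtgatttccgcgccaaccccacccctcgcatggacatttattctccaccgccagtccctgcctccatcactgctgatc

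Among the Mmps outside the membrane type, 3 rose in ICH, beside 11.4% risen over all genes tested. They were 2 of the 3 tested gelatinases, collagenases, stromelysins and matrilysins (10 members) and 1 of the 3 other tested Mmps (7 members). Mmp19, a basement membrane protease, stood at 2.50, 1.98 and 2.19 CPM in Sham, 18.1, 17.2 and 12.4 CPM in ICH and 10.95, 7.13 and 6.13 CPM in EDB, so that all ICH libraries lay above all others (ICH against Sham 2.83 ± 0.28, adjusted p = 7.21e-05). The gelatinase Mmp2, which cuts denatured collagen and type IV collagen, stood at 8.37, 10.5 and 9.34 CPM in Sham, 31.9, 23.5 and 27.2 CPM in ICH and 25.7, 32.6 and 75.02 CPM in EDB. Its ICH and EDB libraries all lay above the Sham libraries (1.55 ± 0.35, adjusted p = 0.00996 in ICH), and the call was lost without both Sham 2 and ICH 1 (adjusted p = 0.0801). The other gelatinase, Mmp9, stood at 0.0625, 0.889 and 0.637 CPM in Sham, 5.83, 4.03 and 2.81 CPM in ICH and 1.61, 0.300 and 1.75 CPM in EDB. Its rise in ICH was 2.99 ± 0.75, adjusted p = 0.0177, from 1, 13 and 9 counts in Sham to 100, 64 and 52 in ICH, and was not called when Sham 3 or ICH 1 was left out (adjusted p from 0.0514 to 0.0646), and without both Sham 2 and ICH 1 or without Sham 2, ICH 1 and EDB 1 together (adjusted p from 0.0550 to 0.0739). Mmp11, a stromelysin activated inside the cell, stood at 3.50, 1.23 and 1.06 CPM in Sham, 3.32, 3.96 and 3.67 CPM in ICH and 3.46, 2.16 and 4.44 CPM in EDB, with Sham 1 at the level of the ICH libraries. It was not called (0.91 ± 0.46, adjusted p = 0.207), but without Sham 1 it was, with a log2 fold change of 1.63 (adjusted p = 0.0254). Mmp28, also called epilysin, stood at 5.06, 3.90 and 2.48 CPM in Sham, 5.13, 3.90 and 2.86 CPM in ICH and 6.19, 5.22 and 3.56 CPM in EDB (0.05 ± 0.35). Mmp23 stood at 0.9998, 0.410 and 1.63 CPM in Sham, 0.816, 1.13 and 1.46 CPM in ICH and 1.73, 0.719 and 1.06 CPM in EDB (0.17 ± 0.55). In both genes the Sham and ICH libraries overlapped and neither was called.

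Membrane-type Mmps moved in both directions. Mmp14, which activates Mmp2 at the cell surface, stood at 17.2, 11.97 and 14.7 CPM in Sham, 47.1, 53.9 and 48.6 CPM in ICH and 28.9, 19.003 and 51.95 CPM in EDB. It rose in ICH (1.77 ± 0.30, adjusted p = 0.00236), a call lost without Sham 2, ICH 1 and EDB 1 together (adjusted p = 0.0512). Mmp24 and Mmp17, membrane-type Mmps known to be made by neurons, fell instead. Mmp24 stood at 128, 169.6 and 138 CPM in Sham, 82.7, 92.1 and 106 CPM in ICH and 107, 112 and 107 CPM in EDB (-0.63 ± 0.14, adjusted p = 0.00812), and its call was lost without Sham 2, ICH 1 and EDB 1 together (adjusted p = 0.0538), with a log2 fold change of -0.42. Mmp17 stood at 77.3, 126 and 85.4 CPM in Sham, 59.7, 59.9 and 57.4 CPM in ICH and 71.8, 96.3 and 87.7 CPM in EDB (-0.70 ± 0.18, adjusted p = 0.0194). The 3 ICH libraries of Mmp17 were close together below every Sham library, while Sham 2 lay well above Sham 1 and Sham 3. Without Sham 2 the log2 fold change of Mmp17 was -0.46 (adjusted p = 0.0425), and the call was lost when ICH 1, ICH 2 or ICH 3 was left out (adjusted p from 0.0543 to 0.0615), and without both Sham 2 and ICH 1 (adjusted p = 0.0693). Mmp15 stood at 77.8, 80.5 and 70.01 CPM in Sham, 85.3, 72.9 and 70.9 CPM in ICH and 78.8, 66.5 and 104 CPM in EDB, with a log2 fold change of 0.00 ± 0.16. Its groups overlapped. Mmp16 had a log2 fold change of 0.52 ± 0.24 from 6.62, 5.95 and 7.9995 CPM in Sham, 12.6, 7.74 and 9.07 CPM in ICH and 6.74, 7.37 and 5.75 CPM in EDB. Mmp25, known as a leukocyte enzyme, had a log2 fold change of -0.36 ± 0.58 from 0.9998, 1.85 and 0.566 CPM in Sham, 1.34, 0.503 and 0.810 CPM in ICH and 0.804, 0.300 and 0.563 CPM in EDB. None of these 3 was called.

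A further group of Mmps, all of them below the filter on low counts, was almost silent in Sham. The 10 members Mmp13, Mmp12, Mmp1b, Mmp3, Mmp1, Mmp10, Mmp8, Mmp27, Mmp20 and Mmp7, in that order, lie close together on chromosome 8 of GRCr8, the assembly of the reference tables (the counts rest on Rnor_6.0). They include the collagenases Mmp8 and Mmp13, the macrophage elastase Mmp12, the stromelysins Mmp3 and Mmp10 and the matrilysin Mmp7. All 10 had a promoter window. The AP-1 heptamer TGAGTCA, which reads TGACTCA on the other strand, was searched in both forms. Of the 10 windows, 6 held it, at 61 to 87 bases before the start, against 4.63% of all windows. Over all members with a window, 8 of 52 held it (15.4%), these 6 included. Of the members that rose in ICH against Sham, 0 of the 6 with a window held it. The excerpts show 31 bases around the heptamer, which is in capitals, all on the plus strand of GRCr8, and are shown because 6 neighbouring genes share these letters at a like distance from the start: Mmp13 (chr8:12782751-12782781), Mmp12 (chr8:12866553-12866583), Mmp3 (chr8:12925198-12925228), Mmp1 (chr8:12943357-12943387), Mmp10 (chr8:12974634-12974664) and Mmp7 (chr8:13132951-13132981).
Mmp13: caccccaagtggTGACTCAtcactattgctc
Mmp12: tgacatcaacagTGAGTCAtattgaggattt
Mmp3: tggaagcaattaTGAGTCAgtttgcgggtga
Mmp1: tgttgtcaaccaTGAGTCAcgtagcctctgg
Mmp10: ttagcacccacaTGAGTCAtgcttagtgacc
Mmp7: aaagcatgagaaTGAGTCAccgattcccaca
The 250 bases before the start of Mmp12, the gene of this group with the most counts, are given whole (chr8:12866402-12866651, plus strand), 5′ to 3′, with the heptamer in capitals 87 bases before the start.
Mmp12: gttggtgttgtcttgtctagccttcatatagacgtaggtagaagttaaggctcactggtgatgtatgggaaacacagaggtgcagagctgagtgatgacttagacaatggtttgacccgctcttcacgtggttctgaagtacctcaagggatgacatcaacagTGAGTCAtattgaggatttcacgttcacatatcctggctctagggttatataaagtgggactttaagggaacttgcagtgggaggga

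Of these 10 neighbours, Mmp12, Mmp8 and Mmp3 held nearly all counts. Mmp12 had no count in the 3 Sham libraries, 72, 26 and 7 counts in ICH 1, ICH 2 and ICH 3, and 0, 4 and 1 counts in EDB 1, EDB 2 and EDB 3. Set against a floor of 3 counts over the Sham group, Mmp12 was 30.4-fold higher in ICH, with a lower 95% exact limit of 24.3-fold (counting error only). ICH 1 held 72 of the 105 ICH counts. Without ICH 1 the ratio to the floor was 14.3 and the lower limit 10.996. Without any 1 of the other libraries the ratio to the floor was 19.5 to 44.2 and the lower limit 15.6 to 35.3. Mmp8, the collagenase of neutrophils, had 1, 3 and 3 counts in Sham, 46, 5 and 15 in ICH and 2, 2 and 5 in EDB. Its ratio of summed counts, scaled by library size, was 8.18 in ICH against Sham (95% exact interval 3.76 to 21.1, counting error only). ICH 1 held 46 of its 66 ICH counts. Without ICH 1 the ratio was 3.72 (1.51 to 10.4), and 6.13 to 10.9 without any 1 of the other libraries. The AP-1 letters are not in its window. Mmp3 had no count in Sham either, 1, 3 and 10 in ICH and 3, 0 and 3 in EDB. Against the same floor it was 4.05-fold higher in ICH, with a lower 95% exact limit of 2.88-fold. Without ICH 3 the ratio to the floor was 1.81 and the lower limit 0.894, which does not exclude an equal level. Without any 1 of the others the ratio to the floor was 2.602 to 5.64. The other 7 had 0 to 3 counts in any library. Over all 10 genes the counts were 1, 4 and 3 in Sham, 121, 34 and 35 in ICH and 8, 6 and 9 in EDB, with every ICH library above every other library and ICH 1 far above ICH 2 and ICH 3. Their sum was 20.6 times as high in ICH as in Sham (95% exact interval 10.3 to 48.4, counting error only), 11.2 (5.39 to 27.01) times without ICH 1, and 15.1 to 27.8 times without any 1 of the other libraries. Without the filter on low counts, edgeR called Mmp12 (8.07 ± 1.64, adjusted p = 0.00811) and Mmp8 (2.95 ± 0.89, adjusted p = 0.0411) in ICH against Sham, where the fitted change of Mmp12 depends on the prior count. Mmp3 was not called there (5.14 ± 1.83, adjusted p = 0.0923). A pair of decamers of the transcription factor NF-kB was found, on either strand, in none of the 52 members with a window and in 0.185% of all windows. Among the members that passed the filter, only Adam19 held the AP-1 heptamer, of 35 with a window.

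**Figure D2:**
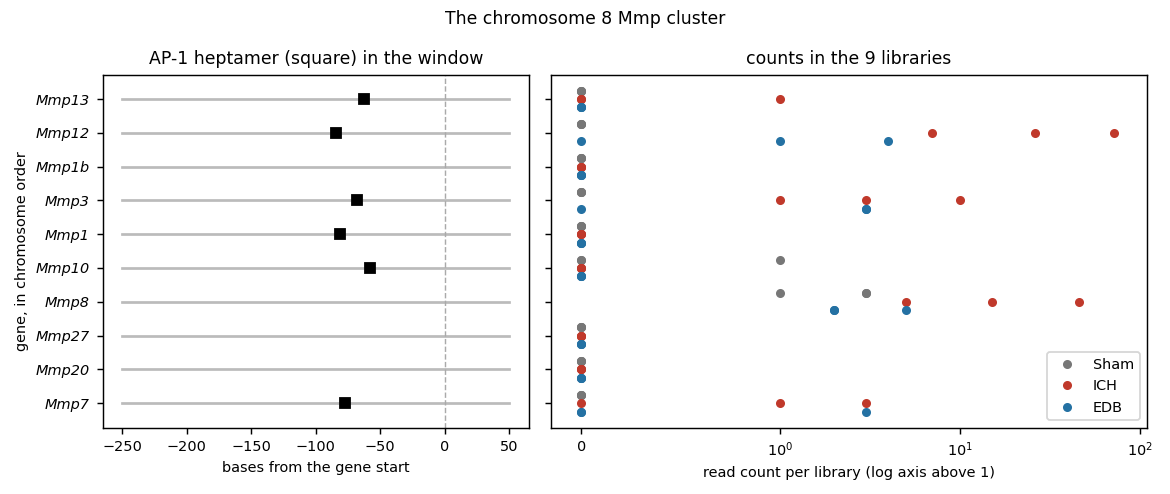
Left, the promoter windows of 10 neighbouring Mmp genes (x axis, bases from the gene start, dashed line at the start), with a square where the AP-1 heptamer lies, at 61 to 87 bases before the start in 6 windows. Right, read counts of the same genes in each of the 9 libraries (log axis above 1, groups by colour), where Mmp12 reaches 72, 26 and 7 counts in ICH and 0 in every Sham library.

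Among the 7 tested Adams of the sheddase type, 4 rose in ICH and 3 were not called, beside 11.4% risen over all genes tested. Adam8, a sheddase of myeloid cells, rose most. It stood at 1.69, 0.958 and 1.56 CPM in Sham, 30.03, 14.3 and 7.83 CPM in ICH and 2.72, 1.38 and 1.44 CPM in EDB. ICH lay above every other library, with the highest level in ICH 1, and the Sham and EDB libraries overlapped. The change in ICH was 3.62 ± 0.51, adjusted p = 0.000642, called under all 20 alternatives, and 2.97 without ICH 1. Adam12, first described in fusing muscle cells, stood at 6.69, 2.74 and 6.94 CPM in Sham, 16.7, 14.8 and 13.9 CPM in ICH and 6.43, 5.93 and 5.75 CPM in EDB and rose (1.47 ± 0.30, adjusted p = 0.00636), also under all 20 alternatives. Adam15, a membrane protease with an integrin-binding motif, stood at 73.1, 88.9 and 71.4 CPM in Sham, 120.4, 153 and 143 CPM in ICH and 122, 98.1 and 89.7 CPM in EDB (0.83 ± 0.15, adjusted p = 0.00318). Adam17, the enzyme that releases tumour necrosis factor, stood at 29.2, 19.8 and 34.5 CPM in Sham, 66.6, 47.7 and 44.1 CPM in ICH and 25.5, 42.9 and 28.6 CPM in EDB (0.92 ± 0.25, adjusted p = 0.0269). Its call was lost when Sham 1, Sham 2, ICH 1 or ICH 2 was left out (adjusted p from 0.0529 to 0.108), and without both Sham 2 and ICH 1 or without Sham 2, ICH 1 and EDB 1 together (adjusted p from 0.134 to 0.173), and its log2 fold change was 0.53 without both Sham 2 and ICH 1. Adam10, which cuts the amyloid precursor protein and Notch, stood at 30.3, 14.8 and 35.8 CPM in Sham, 71.9, 41.1 and 38.3 CPM in ICH and 19.98, 45.3 and 24.7 CPM in EDB. All 3 ICH libraries lay above Sham, but ICH 1 was far above the others and Sham 2 far below, and Adam10 was not called (0.90 ± 0.38, adjusted p = 0.129). The sheddases Adam9 and Adam19 were not called, with log2 fold changes of 0.50 ± 0.23, adjusted p = 0.161, and 0.22 ± 0.24, adjusted p = 0.597. In Adam9, Adam10 and Adam17 alike, Sham 2 was the lowest Sham library and ICH 1 the highest ICH library.

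Of the 3 brain Adams without catalysis, 1 fell in ICH, beside 7.30% fallen over all genes tested. Adam11 stood at 78.99, 79.1 and 79.6 CPM in Sham, 49.8, 43.7 and 48.5 CPM in ICH and 79.5, 66.3 and 60.9 CPM in EDB. The Sham libraries were within 1 CPM of each other, all 3 ICH libraries lay far below them, and the log2 fold change was -0.74 ± 0.12 (adjusted p = 0.00194). The call was kept under the 19 alternatives that set no limit on the size of the change. Adam23 stood at 67.6, 93.5 and 72.8 CPM in Sham, 56.1, 66.6 and 66.9 CPM in ICH and 75.5, 88.003 and 59.8 CPM in EDB, with every ICH library below every Sham library, and was not called (-0.30 ± 0.17, adjusted p = 0.256). Adam22, a receptor of the secreted synaptic protein Lgi1, stood at 18.1, 17.03 and 21.9 CPM in Sham, 14.9, 18.4 and 17.6 CPM in ICH and 16.02, 20.4 and 11.2 CPM in EDB (-0.17 ± 0.22, adjusted p = 0.663), with overlapping groups. Adam1a, which acts in sperm, was the remaining tested Adam (-0.32 ± 0.31, adjusted p = 0.533). The other 14 Adams were not tested, and of these Adam33 had 0 to 15 counts and Adam32 0 to 5 per library, and the rest had 2 or fewer.

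Of 22 tested Adamts and Adamtsl genes, 1 rose and 2 fell in ICH, beside 11.4% risen and 7.30% fallen over all genes tested. Adamts9, which cuts versican and aggrecan, stood at 3.69, 1.64 and 2.62 CPM in Sham, 7.87, 4.53 and 5.67 CPM in ICH and 1.61, 2.52 and 2.44 CPM in EDB. Each ICH library lay above each Sham and EDB library, and the rise was 1.18 ± 0.36, adjusted p = 0.0440. The call was lost when any 1 library other than Sham 1 or EDB 1 was left out (adjusted p from 0.0516 to 0.162), and with only the 6 libraries compared, without both Sham 2 and ICH 1 or without Sham 2, ICH 1 and EDB 1 together (adjusted p from 0.0585 to 0.235). Adamts6 stood at 15.6, 5.61 and 11.9 CPM in Sham, 4.31, 4.22 and 3.78 CPM in ICH and 2.47, 4.80 and 3.75 CPM in EDB and fell (-1.43 ± 0.37, adjusted p = 0.0200), with Sham 2 just above the ICH libraries. Its call was lost when Sham 1, Sham 3, ICH 1, ICH 2 or ICH 3 was left out (adjusted p from 0.0541 to 0.0724). Adamtsl5, which binds fibrillin, stood at 6.37, 9.44 and 9.27 CPM in Sham, 4.02, 3.33 and 2.54 CPM in ICH and 2.35, 3.72 and 3.88 CPM in EDB and fell (-1.34 ± 0.30, adjusted p = 0.0100) under all 20 alternatives. Adamtsl4, another fibrillin-binding protein, stood at 2.44, 3.42 and 2.97 CPM in Sham, 7.29, 8.24 and 6.59 CPM in ICH and 7.24, 3.78 and 15.6 CPM in EDB, with no overlap between Sham and ICH, yet it missed the threshold (1.32 ± 0.43, adjusted p = 0.0558). It was called when EDB 2 or EDB 3 was left out (adjusted p from 0.0125 to 0.0163), and with scaling by library size only, with DESeq2 or with only the 6 libraries compared (adjusted p from 0.00921 to 0.0396). Adamts4, the main aggrecanase with Adamts5, stood at 48.99, 67.4 and 38.5 CPM in Sham, 71.2, 83.4 and 35.7 CPM in ICH and 82.2, 79.6 and 94.4 CPM in EDB (0.30 ± 0.28). Adamts1, also an aggrecanase, stood at 8.81, 11.3 and 15.1 CPM in Sham, 21.4, 18.1 and 9.61 CPM in ICH and 9.40, 6.23 and 10.5 CPM in EDB (0.48 ± 0.32). Both were uncalled, with Sham and ICH libraries that overlapped. Adamts7, which cuts the cartilage protein Comp, had a log2 fold change of 1.11 ± 0.48, adjusted p = 0.145, or 1.92 without Sham 1 (adjusted p = 0.0137), where Sham 1 at 4.12 CPM stood near the ICH libraries and Sham 2 and Sham 3 at 0.889 and 1.56 CPM did not. Adamts10 had a log2 fold change of -0.44 ± 0.17, adjusted p = 0.0993, and was called when Sham 2 was left out (adjusted p = 0.0332), and without both Sham 2 and ICH 1 or without Sham 2, ICH 1 and EDB 1 together (adjusted p from 0.0236 to 0.0307), at -0.58 without Sham 2. The 3 procollagen N-proteinases Adamts2, Adamts3 and Adamts14 had log2 fold changes of 0.90, -0.22 and -0.43. The remaining 11 tested genes of these families ran from -0.53 (Adamts15) to 0.89 (Adamts12), and Adamts16 and Adamts18 had at most 11 and 5 counts per library.

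**Figure D3:**
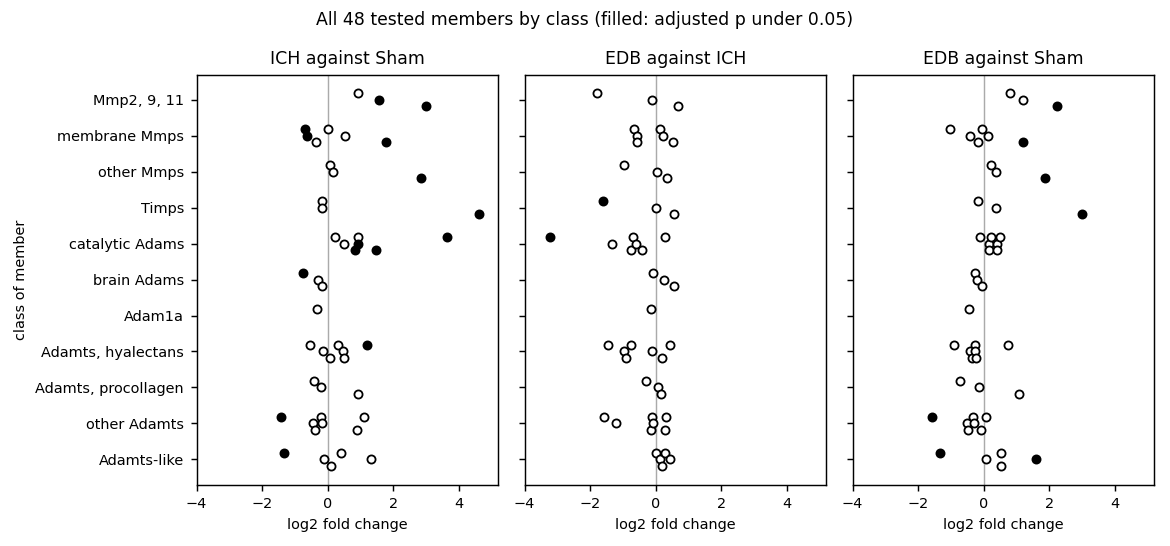
Log2 fold changes (x axis) of the 48 tested members in the 3 comparisons, 1 point per gene, by class (y axis), filled where the adjusted p was under 0.05. In ICH against Sham 15 points are filled, in EDB against ICH 2 (Timp1 and Adam8) and in EDB against Sham 7.

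Markers of other cells moved beside these results. Over all genes tested, 11.4% rose and 7.30% fell in ICH against Sham. The 12 microglia and macrophage markers summed to 751 to 877 CPM in Sham, 3339 to 3803 CPM in ICH and 1659.8 to 2897 CPM in EDB, with 10 of 12 risen in ICH against Sham. The 7 monocyte and border macrophage markers summed to 40.4 to 59.04 CPM in Sham, 423 to 684 CPM in ICH and 144 to 216 CPM in EDB, with 5 of 6 tested risen, while Ccr2 had few counts in every library. The 9 neutrophil markers, of which Mmp8 is one, summed to 9.19 to 11.5 CPM in Sham, 56.2 to 70.7 CPM in ICH and 22.1 to 38.97 CPM in EDB, with 3 of 5 tested risen, and Mpo and Elane stood at most at 0.125 and 0.124 CPM in any library. In each of these 3 lists the ICH libraries were above all EDB libraries and those above all Sham libraries. The 6 astrocyte markers summed to 2057 to 2729.8 CPM in Sham, 7305 to 7598 CPM in ICH and 4731 to 5461 CPM in EDB, with 2 of 6 risen in ICH. The 5 neuron markers summed to 1263 to 1492 CPM in Sham, 959.6 to 1043 CPM in ICH and 1086 to 1302 CPM in EDB, and 3 of 5 fell in ICH, in the same direction as Adam11, Mmp17 and Mmp24. The 6 tested markers of striatal projection neurons, of 7 listed, summed to 6229.7 to 10570.3 CPM in Sham, 4500.4 to 5901 CPM in ICH and 6926 to 7523 CPM in EDB, and 3 fell in ICH. The 6 oligodendrocyte markers summed to 16678 to 27086 CPM in Sham, 15810.0 to 31559 CPM in ICH and 37209 to 42916 CPM in EDB, so that every EDB library lay above every Sham and ICH library, and none of the 6 was called in any comparison. Library by library they summed to 22379, 27086 and 16678 CPM in Sham, 31559, 27408 and 15810.0 CPM in ICH and 37209, 37239 and 42916 CPM in EDB. Adamts4, given above, was likewise highest in Sham 2 among the Sham libraries and lowest in ICH 3 among the ICH libraries. Among the ICH libraries, however, the marker sum was highest in ICH 1 and Adamts4 in ICH 2. The 4 oligodendrocyte precursor markers summed to 407 to 455 CPM in Sham, 653 to 807 CPM in ICH and 540.1 to 663 CPM in EDB, and all 4 rose in ICH. The 5 tested endothelial markers had 1 fall in ICH, the 6 pericyte and smooth muscle markers 1 rise and 2 falls, and the 7 fibroblast and meningeal markers 1 rise. The part that cell numbers have in the values of the members was not tested.

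EDB was compared with ICH to see how the drug group differed from hemorrhage. This comparison shares its ICH libraries with ICH against Sham, so that a high ICH library enters both. Of the 48 tested members, 2 fell (Adam8 and Timp1), none rose and 46 were not called, which makes 4.17% called beside 0.687% of all genes tested (0.0560% risen and 0.631% fallen). At an unadjusted p under 0.05, 2 members were higher and 13 lower by edgeR, beside 16.2% of all genes tested (895 higher and 1423 lower). DESeq2 called 1 rise (Adam11) and 6 falls, and limma-voom called 0 rises and 2 falls. The median log2 fold change was -0.10 over the members and -0.03 over all genes. Adam8 fell by 3.23 ± 0.49 on the log2 scale (adjusted p = 0.0244), from 17.4 ± 11.4 CPM to 1.85 ± 0.759 CPM. This call was lost when ICH 1, ICH 2, EDB 2 or EDB 3 was left out (adjusted p from 0.0594 to 0.0880), and with limma-voom (adjusted p = 0.0534). Timp1 fell by 1.60 ± 0.31 (adjusted p = 0.0475), from 41.9 ± 6.86 CPM to 13.8 ± 7.30 CPM, and the call went when any 1 library other than Sham 2 or EDB 1 was left out (adjusted p from 0.0695 to 0.151), and with only the 6 libraries compared or without both Sham 2 and ICH 1 (adjusted p from 0.0643 to 0.107). In both genes every EDB library lay below every ICH library, and the log2 fold change stayed between -3.62 and -2.58 for Adam8 and between -2.13 and -1.36 for Timp1 under all 20 alternatives.

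In 13 further members the EDB and ICH libraries did not overlap although the threshold was missed, which makes 15 of 48 without overlap, against 25.2% of all genes. Below ICH lay Adam12 (-1.33 ± 0.30, adjusted p = 0.0715), Adamts9 (-1.46 ± 0.37, adjusted p = 0.0953), Mmp19 (-0.98 ± 0.26, adjusted p = 0.102), Adamts7 (-1.58 ± 0.49, adjusted p = 0.156), Mmp9 (-1.79 ± 0.69, adjusted p = 0.231), Adam17 (-0.71 ± 0.25, adjusted p = 0.204), Adam9, Mmp16 and Adamts12, of which the last 3 had log2 fold changes of -0.62, -0.57 and -1.22. Above ICH lay Adam11 (0.54 ± 0.12, adjusted p = 0.0736), Mmp17 (0.53 ± 0.18, adjusted p = 0.186), Mmp24 (0.21 ± 0.14, adjusted p = 0.474) and Adam19 (0.28 ± 0.23, adjusted p = 0.589). Adam12, Mmp19, Adamts9, Adamts7 and Adam11 were called by DESeq2 (adjusted p from 0.00169 to 0.0496). Adam12 was called when Sham 2 was left out (adjusted p = 0.0183), and with DESeq2, with limma-voom, with only the 6 libraries compared or without both Sham 2 and ICH 1 (adjusted p from 0.00169 to 0.0466). Adamts9 was called when Sham 2 was left out (adjusted p = 0.0488), and with DESeq2 (adjusted p = 0.0113). No Sham library is part of these differences, in a model where all groups share 1 estimate of the spread. Mmp12 had 5 counts in EDB against 105 in ICH, a ratio of 0.0503 (95% exact interval 0.0160 to 0.121). Mmp8 had 9 against 66, a ratio of 0.144 (0.0631 to 0.290). Without ICH 1 the ratio of Mmp12 was 0.107 (0.0325 to 0.275) and that of Mmp8 0.317 (0.127 to 0.728). Without EDB 2 that of Mmp12 was 0.0153 (0.000383 to 0.0870), with 1 count left in EDB, and without EDB 3 that of Mmp8 was 0.0952 (0.0252 to 0.255). These intervals cover counting error only, and neither gene was called without the filter (adjusted p = 0.118 and 0.173).

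**Figure D4:**
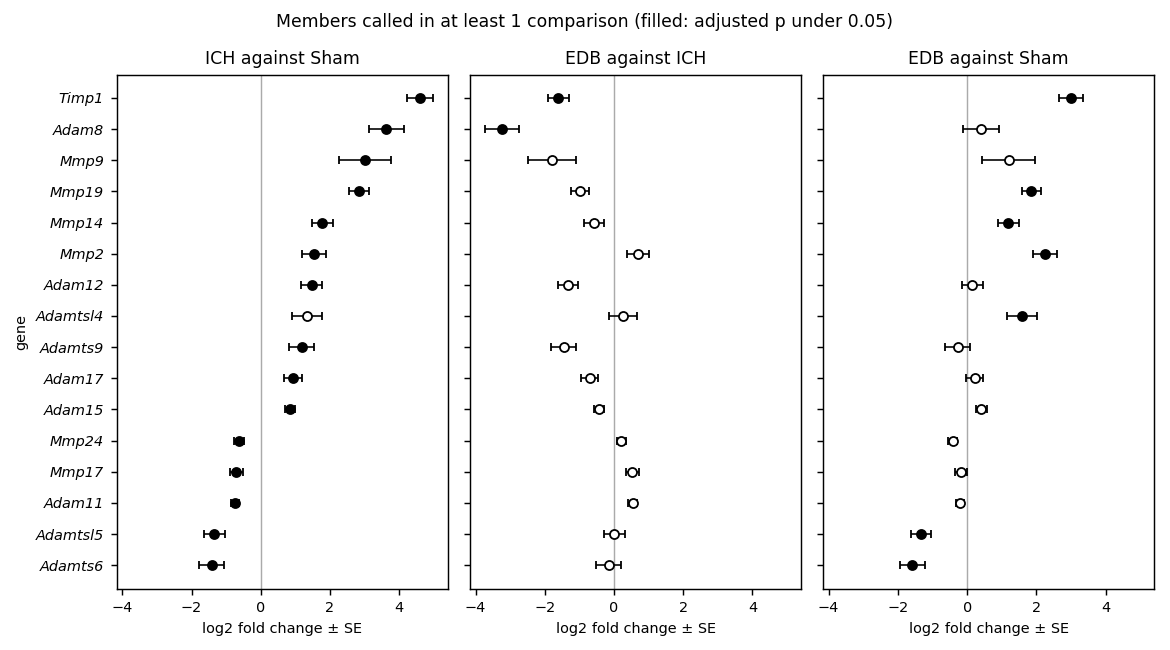
Log2 fold change ± SE (x axis) of the 16 members called in at least 1 comparison (y axis), n = 3 against 3 libraries, filled where the adjusted p was under 0.05. Timp1 is filled in all 3 panels at 4.60, -1.60 and 3.0, and Adam8 is filled in the first and second panels.

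EDB against Sham asks which members differed from the control group. Here 5 of 48 rose (Mmp2, Timp1, Mmp19, Mmp14 and Adamtsl4) and 2 fell (Adamtsl5 and Adamts6), which makes 14.6% called beside 7.66% of all genes tested (4.95% risen and 2.71% fallen). The median log2 fold change of the members was -0.06, beside -0.01 over all genes. Timp1 rose by 3.0 ± 0.36 (adjusted p = 0.000991) and Mmp19 by 1.85 ± 0.28 (adjusted p = 0.00263), both called under all 20 alternatives. None of the 11 tested Adams was called by edgeR, 1 had an unadjusted p under 0.05, and DESeq2 and limma-voom called 0 Adams. Adam19 (0.50 ± 0.24, adjusted p = 0.238) was called when Sham 2 was left out (adjusted p = 0.0297), and without both Sham 2 and ICH 1 (adjusted p = 0.0317), with a log2 fold change of 0.82 without Sham 2. Adam15 (0.41 ± 0.15, adjusted p = 0.131) was called without both Sham 2 and ICH 1 (adjusted p = 0.0411). Adam8 had a log2 fold change of 0.39 ± 0.52, adjusted p = 0.704, and Adam12 0.15 ± 0.30, adjusted p = 0.820, at levels that overlapped those of Sham. The 2 falls were also seen in ICH against Sham, with which this comparison shares its Sham libraries. Adamtsl5 was at -1.33 ± 0.30, adjusted p = 0.0219, and Adamts6 at -1.58 ± 0.37, adjusted p = 0.0262. Adamtsl5 was no longer called when Sham 3 or EDB 1 was left out (adjusted p from 0.0810 to 0.0910), and without Sham 2, ICH 1 and EDB 1 together (adjusted p = 0.0963), and Adamts6 when Sham 1, Sham 3, EDB 1 or EDB 3 was left out (adjusted p from 0.0662 to 0.105), and with limma-voom or with only the 6 libraries compared (adjusted p from 0.0537 to 0.0605). Adamts4, uncalled at 0.73 ± 0.28, adjusted p = 0.15, had all 3 EDB libraries above Sham. The summed oligodendrocyte markers lay above Sham in the same 3 libraries, and their part in the level of Adamts4 was not tested. Adamts10 (-0.52 ± 0.17, adjusted p = 0.0919) was called when Sham 2 was left out (adjusted p = 0.0288), and with DESeq2 or without both Sham 2 and ICH 1 (adjusted p from 0.0214 to 0.0421), and Mmp24 (-0.42 ± 0.14, adjusted p = 0.0864) with DESeq2 (adjusted p = 0.0473).

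The other 3 rises had their highest EDB value in EDB 3, the library with choroid plexus transcripts. Mmp2 stood at 75.02 CPM there against 25.7 and 32.6 CPM in EDB 1 and EDB 2. Its log2 fold change against Sham was 2.24 ± 0.35, adjusted p = 0.00332, and 1.63 without EDB 3 (adjusted p = 0.000664), so the rise stayed called. Mmp14 stood at 51.95 CPM in EDB 3 against 28.9 and 19.003 CPM. Its change went from 1.18 ± 0.30, adjusted p = 0.0384 to 0.71 without EDB 3 (adjusted p = 0.0886). Adamtsl4, at 15.6 CPM in EDB 3, went from 1.59 ± 0.43, adjusted p = 0.0497 to 0.90 (adjusted p = 0.161). The call of Mmp14 was lost when any 1 library other than EDB 2 was left out (adjusted p from 0.0508 to 0.120), and with limma-voom, with only the 6 libraries compared, without both Sham 2 and ICH 1 or without Sham 2, ICH 1 and EDB 1 together (adjusted p from 0.0792 to 0.163). That of Adamtsl4 was lost when any 1 library other than EDB 2 was left out (adjusted p from 0.0627 to 0.161), and with RLE scaling, with limma-voom, with only the 6 libraries compared, without both Sham 2 and ICH 1 or without Sham 2, ICH 1 and EDB 1 together (adjusted p from 0.0519 to 0.146). All 6 choroid plexus markers were highest in EDB 3, among them Ttr at 6684 CPM against 17.02 to 52.5 CPM elsewhere. Igf2, listed with the fibroblast and meningeal markers, stood at 538 CPM in EDB 3 against 19.9 to 61.99 CPM elsewhere, while Col1a1, Dcn and Lum from the same list were at 7.75, 4.25 and 0.563 CPM there, within or below their range in the other 8 libraries. All 7 markers of that list, Igf2 included, summed to 676 CPM in EDB 3 against 155 to 315 CPM elsewhere. The remaining markers of the list are not given singly. The part of such tissue in the rise of Mmp2, Mmp14 and Adamtsl4 was not tested.

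**Figure D5:**
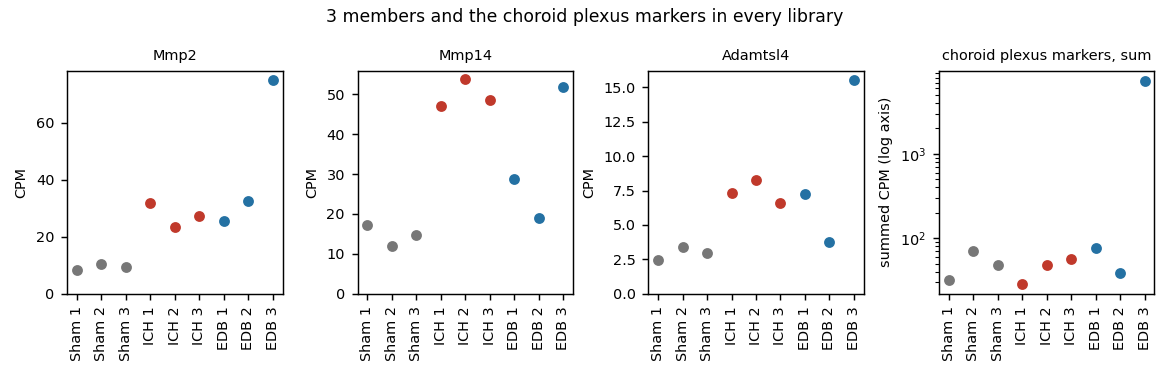
CPM of Mmp2, Mmp14 and Adamtsl4 (linear axes from 0) and the summed CPM of 6 choroid plexus markers (log axis) in each of the 9 libraries, coloured by group. EDB 3 is the highest library for Mmp2 (75.0), Adamtsl4 (15.6) and the choroid plexus sum (7344), while Mmp14 in EDB 3 (52.0) is at the level of the ICH libraries.

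Genes whose products activate, hold or take up metalloproteinases were followed as a list of 26, all tested. In ICH against Sham, 13 rose, none fell and 13 were not called (median 0.49), beside 11.4% risen and 7.30% fallen over all genes tested (median 0.01). The lysosomal and surface protein Cd63, which binds Timp1, rose by 1.72 ± 0.16, the plasminogen activator Plau by 5.11 ± 0.49 and the surface proteoglycan Sdc1 by 3.34 ± 0.38. Rhbdf2, which encodes the iRhom2 protein that brings Adam17 to the cell surface, stood at 2.44, 1.57 and 1.13 CPM in Sham, 24.8, 16.8 and 15.7 CPM in ICH and 11.01, 12.6 and 7.19 CPM in EDB and rose by 3.46 ± 0.34 (adjusted p = 7.03e-05). In EDB against ICH, 3 of the 26 fell, beside 0.631% of all genes tested, namely the hyaluronan receptor Cd44 (-1.62 ± 0.22, adjusted p = 0.0197), Sdc1 (-2.38 ± 0.35, adjusted p = 0.0244) and Plau (-2.31 ± 0.40, adjusted p = 0.0418). The call of Cd44 was lost when EDB 2 was left out (adjusted p = 0.0586), and without Sham 2, ICH 1 and EDB 1 together (adjusted p = 0.0877). That of Sdc1 was lost when ICH 1, ICH 2, EDB 2 or EDB 3 was left out (adjusted p from 0.0758 to 0.0880), and without both Sham 2 and ICH 1 or without Sham 2, ICH 1 and EDB 1 together (adjusted p from 0.0576 to 0.0580), and that of Plau when any 1 library other than Sham 2 or ICH 3 was left out (adjusted p from 0.0598 to 0.0990), and with limma-voom, with only the 6 libraries compared, without both Sham 2 and ICH 1 or without Sham 2, ICH 1 and EDB 1 together (adjusted p from 0.0501 to 0.108). In EDB against Sham, 7 rose and none fell, beside 4.95% risen and 2.71% fallen over all genes tested.

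Matrix proteins that these enzymes cut were followed as a list of 24, of which 23 were tested. In ICH against Sham, 7 rose, 2 fell and 14 were not called (median 0.44), beside 11.4% risen and 7.30% fallen over all genes tested. The brain proteoglycan Ncan stood at 162, 183 and 159 CPM in Sham, 432, 469 and 545 CPM in ICH and 193, 182 and 206 CPM in EDB and rose by 1.52 ± 0.12 (adjusted p = 3.05e-05). In EDB against ICH, 3 of the 23 fell and none rose, beside 0.631% fallen over all genes tested. Ncan fell by 1.31 ± 0.12 (adjusted p = 0.00322), as did the basement membrane collagens Col4a1 (-0.77 ± 0.15, adjusted p = 0.0483) and Col4a2 (-0.74 ± 0.14, adjusted p = 0.0439). The fall of Ncan held under all 20 alternatives. That of Col4a1 was lost when any 1 library other than Sham 2 was left out (adjusted p from 0.0582 to 0.151), and with RLE scaling, with only the 6 libraries compared, without both Sham 2 and ICH 1 or without Sham 2, ICH 1 and EDB 1 together (adjusted p from 0.0530 to 0.0744), and that of Col4a2 when any 1 library other than Sham 2 or EDB 1 was left out (adjusted p from 0.0657 to 0.155), and with only the 6 libraries compared, without both Sham 2 and ICH 1 or without Sham 2, ICH 1 and EDB 1 together (adjusted p from 0.0600 to 0.0751). Spp1, the gene of the matrix protein osteopontin, stood at 0.312, 0.752 and 0.496 CPM in Sham, 1912, 380.1 and 295 CPM in ICH and 88.3, 82.3 and 44.6 CPM in EDB and rose by 10.69 ± 1.06 in ICH, and the adhesion protein Vtn fell by 0.97 ± 0.14. In EDB against Sham, Spp1 rose and Vtn fell (7.10 ± 0.998 and -0.79 ± 0.14), and the other 21 were not called, beside 7.66% of all genes tested that were. Spp1 was not called in EDB against ICH (-3.59 ± 0.70, adjusted p = 0.0621), but was when ICH 1 or ICH 3 was left out (adjusted p from 0.0202 to 0.0370), and with scaling by library size only, with DESeq2, with limma-voom, without both Sham 2 and ICH 1 or without Sham 2, ICH 1 and EDB 1 together (adjusted p from 0.000350 to 0.04997). Of the 25 tested genes for membrane proteins that Adams release, 11 rose in ICH and none fell (beside 11.4% and 7.30% of all genes tested), among them Cxcl16 (2.58 ± 0.18), the tumour necrosis factor receptor Tnfrsf1a (1.55 ± 0.14) and the microglial receptor Trem2 (2.16 ± 0.20). In EDB against Sham, 8 of the 25 rose and none fell, beside 4.95% risen and 2.71% fallen over all genes tested. Cxcl16 was among the 8, with a log2 fold change of 1.64 (adjusted p = 0.000728). In EDB against ICH, 2 of the 25 fell and none rose, beside 0.631% fallen over all genes tested. Cxcl16 (-0.94 ± 0.17, adjusted p = 0.0439) and Tnfrsf1a (-0.82 ± 0.14, adjusted p = 0.0411) fell. Cxcl16 was not called when any 1 library other than Sham 2 was left out (adjusted p from 0.0522 to 0.151), and without both Sham 2 and ICH 1 or without Sham 2, ICH 1 and EDB 1 together (adjusted p from 0.0783 to 0.142), and Tnfrsf1a was not called when any 1 library other than Sham 2 was left out (adjusted p from 0.0546 to 0.151), and with only the 6 libraries compared, without both Sham 2 and ICH 1 or without Sham 2, ICH 1 and EDB 1 together (adjusted p from 0.05004 to 0.0940). Of 7 tested genes of barrier and basement membrane proteins, Agrn fell in ICH (-0.48 ± 0.11, adjusted p = 0.0124) and the other 6 were not called, beside 7.30% fallen over all genes tested. In EDB against Sham, 2 of the 7 fell and none rose, beside 2.71% fallen over all genes tested. Agrn was 1 of them (-0.44, adjusted p = 0.0370), a call lost under 10 of the 20 alternatives. Among these were all that left out 1 EDB library (adjusted p from 0.0908 to 0.123). The call of Spp1 in EDB against Sham was lost with limma-voom (adjusted p = 0.0559). The call of Agrn in ICH against Sham was lost when ICH 1 was left out (adjusted p = 0.0505), and with scaling by library size only (adjusted p = 0.0539).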

How the data were processed

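Striatal RNA of rats was sequenced in 9 libraries, which were grouped as Sham, ICH and EDB from their labels. The deposited values are read counts per gene, whole numbers that were not normalized. Per the submitters' processing notes, the authors used cutadapt, HISAT2, HTSeq and limma with the build Rnor_6.0. No source used here gives the versions, the annotation, the strand setting or the authors' filters.

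The tests were run with edgeR 4.0.16 (R 4.3.3). Genes were filtered with filterByExpr by group (14274 kept of 22890) and scaled by TMM. All 9 libraries entered 1 quasi-likelihood model (glmQLFit, robust) with a mean per group, so that the 3 comparisons share 1 estimate of the spread. P-values were adjusted by Benjamini-Hochberg over all genes tested and called under 0.05. SE is the log2 fold change divided by the square root of F. Intervals for summed counts are exact Clopper-Pearson intervals at 95%, and floors are 3 counts over a group. Both cover counting error only. The procedure was also run on counts simulated from the fitted spread, without outlying libraries, and no result given here rests on that run.

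The members, the gene lists, the alternatives and the naming rule were chosen with earlier results of these data known. By that rule, values per library are given for called members and for every Mmp and Timp with a mean of at least 1 CPM in some group, other members are given by class, and up to 4 genes with the smallest p are named per list. Members described beyond it (Mmp3, and uncalled Adam and Adamts genes) were chosen after their values were seen. All 75 members matched the RefSeq gene table of GRCr8, and 52 had a promoter window. Promoter sequences are RefSeq's on GRCr8. No 2 libraries of a group agreed within sampling noise. Alternatives used DESeq2 1.42.0, limma 3.58.1 (voom), other scalings and filters, a block and left-out libraries.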

Additional observations from a re-analysis of the deposited data

How the results depend on the processing

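Each count of called members and each log2 fold change was recomputed under 20 alternatives, 9 of which left out 1 library. No log2 fold change of a member called in some comparison changed sign under any of them in a comparison where the member was called. In ICH against Sham the 15 called members became 10 to 17, within 1.5 times. In EDB against ICH the 2 called members became 7 with DESeq2, and 0 to 4 when 1 library was left out. In EDB against Sham the 7 called members became 4 with limma-voom, 4 with only the 6 libraries compared, 4 without Sham 2, ICH 1 and EDB 1, 9 with DESeq2 and 3 to 7 when 1 library was left out. A required absolute log2 fold change above 1 removed Adam11, Adam15, Adam17, Mmp17 and Mmp24 in ICH against Sham by construction. Over all genes, ICH against Sham went from 2670 calls to 1189 with the limit on the fold change and 1769 without ICH 1. EDB against ICH went from 98 calls to 702 with DESeq2, 182 with limma-voom, 39 without both Sham 2 and ICH 1, 31 without Sham 2, ICH 1 and EDB 1, and 8 to 321 when 1 library was left out. EDB against Sham went from 1094 calls to 1797 with DESeq2, 528 with the limit on the fold change, 1978 without both Sham 2 and ICH 1, and 508 to 1661 when 1 library was left out. The cause was not tested. Groups share replicate numbers in their labels. Same-numbered libraries had correlations of deviations from -0.31 to 0.25, and not every library correlated best with its own number. With 3 libraries a group such values cannot decide whether the numbers mark a pairing, and the main model used none. With the replicate number as a block, 12, 2 and 4 members were called in ICH against Sham, EDB against ICH and EDB against Sham, and 58 genes in EDB against ICH. Calls changed by this block are given here, not with the single genes above. Adam17, Adamts6 and Adamts9 were lost in ICH against Sham (adjusted p from 0.0507 to 0.0667). Adamts6, Mmp14, Adamtsl4 and Agrn were lost in EDB against Sham (adjusted p from 0.0566 to 0.0994). In EDB against ICH, Col4a1, Col4a2 and Tnfrsf1a were lost (adjusted p from 0.0638 to 0.0873) and Spp1 was called (adjusted p = 0.0242). Of the members that were not tested, 12 had no count in any library and most of the other 15 had 0 to 15 counts per library, which limits what 3 libraries a group can show for them.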
